A study of Mus musculus with 24 samples.

Results

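Matrix proteases and their inhibitors were followed as 10 genes, chosen by their symbols out of 78298 genes in the deposited tables. They were 4 matrix metalloproteinases (Mmp2, Mmp11, Mmp14 and Mmp15), 3 tissue inhibitors of metalloproteinases (Timp1, Timp2 and Timp3) and 3 ADAMTS proteases (Adamts1, Adamts4 and Adamts5), and each of the 10 names matched 1 gene. RNA had been sequenced from 2 cell types, oocytes and the granulosa cells that surround them, taken from follicles of wild-type mice held in alginate, a polysaccharide gel, with 50 mIU/ml FSH and 10% fetal bovine serum until day 3. The follicles grew in control medium, with blebbistatin at 20 µM, an inhibitor of the motor protein myosin II, or with dextran at a pressure of 10 kPa, a polymer that draws water out and compresses the follicle. Follicles past 180 µm were taken apart by hand, 1 to 2 oocytes or many granulosa cells were pooled for each library, and each of the 6 groups of cell type and medium had 4 libraries. The labels call the replicates biological, and the sources used here give neither the strain and age of the mice, nor whether each replicate was an animal or a culture of its own, nor the solvent of blebbistatin. The p-values measure the spread between these libraries, which may be partly technical.

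Matrix metalloproteinases are zinc enzymes that cut collagens, basement membrane and other matrix proteins, and most are made as inactive precursors. TIMP proteins bind the active site and block them, while ADAMTS proteases cut large proteoglycans such as versican and aggrecan. In the ovary these enzymes take part in remodelling of the basement membrane and theca as follicles grow and in breakdown of the follicle wall at ovulation.

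Each granulosa cell library held 16432300 to 22431000 counts and each oocyte library 14244100 to 18399600. Levels are given as CPM, the count scaled to the library's total, with TMM factors within a cell type. Libraries matched their labels by marker genes: 13 granulosa cell markers summed to between 11947 and 24106 CPM in granulosa cell libraries, and 12 oocyte markers summed to between 16093 and 27171 CPM in oocyte libraries and to at most 14.7 CPM in granulosa cell libraries. By medium, the granulosa cell markers summed to 11947 to 15089 CPM with blebbistatin, below every control library (18683 to 24106 CPM). With dextran they summed to 15046.5 to 20761 CPM. Some libraries stood apart. Oocyte control replicate 2 held 1988 CPM of granulosa cell markers, against 156 to 588 CPM in the other 11 oocyte libraries. Granulosa blebbistatin replicates 1 and 2 held 640 and 963 CPM of 9 immune cell markers, against at most 11.2 CPM in the other granulosa cell libraries, and replicate 1 of them had 14538 genes detected against 18605 to 24297 in the others. In bulk samples such as these, fewer cells of a type and less RNA per cell cannot be told apart.

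The sequences just before 4 of the genes are shown because Timp3, Timp2 and Mmp11 had the smallest p-values of the 10 genes with blebbistatin in granulosa cells and Timp1 the smallest change. They are the 250 bases upstream of the gene's start in RefSeq, build GRCm38.p6, 5′ to 3′ on the gene's own strand. Mmp11 lies at chr10:75932503-75932752 on the minus strand, Timp1 at chrX:20869916-20870165 on the plus strand, Timp2 at chr11:118355412-118355661 on the minus strand and Timp3 at chr10:86300162-86300411 on the plus strand. Capitals mark the GC box (GGGCGG, or its complement) and, in Timp1 alone of these 4, the motif of TEAD factors (GGAATG).
Mmp11: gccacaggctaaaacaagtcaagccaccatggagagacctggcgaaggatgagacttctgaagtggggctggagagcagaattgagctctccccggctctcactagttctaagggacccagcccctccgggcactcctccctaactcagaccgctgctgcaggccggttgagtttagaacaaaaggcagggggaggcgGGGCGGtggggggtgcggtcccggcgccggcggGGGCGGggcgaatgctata
Timp1: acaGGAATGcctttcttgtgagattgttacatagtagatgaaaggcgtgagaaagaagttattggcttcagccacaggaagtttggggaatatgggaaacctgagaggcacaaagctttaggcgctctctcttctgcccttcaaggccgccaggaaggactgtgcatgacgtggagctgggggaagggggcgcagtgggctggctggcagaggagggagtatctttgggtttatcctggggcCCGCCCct
Timp2: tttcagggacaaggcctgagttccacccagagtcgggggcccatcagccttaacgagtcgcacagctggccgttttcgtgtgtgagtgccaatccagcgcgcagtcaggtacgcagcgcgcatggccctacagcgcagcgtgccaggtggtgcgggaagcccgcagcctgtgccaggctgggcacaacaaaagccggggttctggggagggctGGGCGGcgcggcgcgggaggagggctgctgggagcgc
Timp3: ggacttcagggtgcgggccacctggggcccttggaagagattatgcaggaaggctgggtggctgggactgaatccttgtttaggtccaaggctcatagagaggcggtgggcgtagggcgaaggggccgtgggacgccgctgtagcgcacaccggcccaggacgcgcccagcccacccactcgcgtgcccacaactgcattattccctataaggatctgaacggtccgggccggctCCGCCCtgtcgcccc
The table of RefSeq promoters used here was matched for 7 of the 10 genes, and the promoters of Mmp2, Adamts4 and Adamts5 were not used. All 7 held at least 1 GC box, a motif found in 32.7% of 32851 mouse promoters of this length, with 2 in Mmp11, 2 in Mmp14 and 3 in Adamts1. The TEAD motif was in Timp1 only of the 7 (12.6% of all promoters) and the TATA motif (TATAAA) in Adamts1 only (12.4%). Neither the AP-1 motif (TGANTCA, 6.75% of promoters) nor the CArG box (1.47%) was in any of the 7. Each motif was searched on both strands, and a match or its lack is a description of these letters alone.

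Per kilobase of transcript, Mmp11 was the most abundant of the 10 in control granulosa cells, at 63.4 ± 16.1 CPM per kb (SD, n = 4). Timp1 followed at 18.0 ± 3.28 CPM per kb, and the ranges of the first and second did not overlap. Mmp14 (4.82 ± 1.82), Mmp2 (3.93 ± 4.34), Timp3 (3.06 ± 2.80), Adamts1 (2.91 ± 0.820) and Adamts5 (1.85 ± 1.23) came next, and neighbours among these 5 lay within each other's spread. Timp2 (0.712 ± 0.284), within the spread of Adamts5, and then Mmp15 (0.114 ± 0.156) and Adamts4 (0.0930 ± 0.0860 CPM per kb), within each other's, were lowest. In control oocytes the order was another one, with Mmp2 first at 18.7 ± 2.06, Adamts4 second at 2.00 ± 0.976 and then Mmp11 at 1.23 ± 1.54 CPM per kb, the last pair overlapping. The other 7 genes were at or below 0.642 CPM per kb there.

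**Figure D1:**
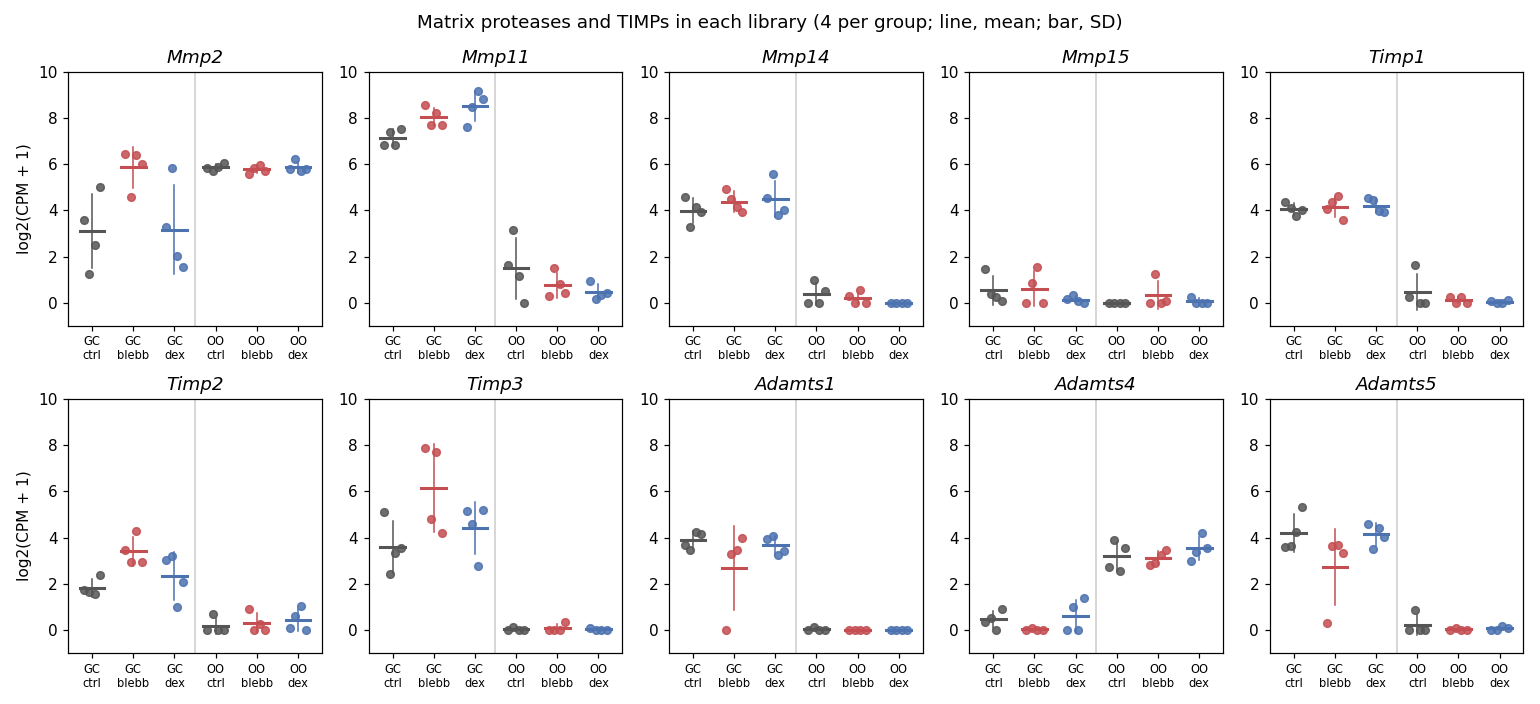
Each panel shows 1 gene as log2(CPM + 1) on the vertical axis, with 1 point per library, a line for the mean and a bar for the SD of the 4 libraries of each group (GC granulosa cells, OO oocytes; ctrl control, blebb blebbistatin, dex dextran). Mmp2 and Adamts4 were the 2 genes higher in control oocytes than in control granulosa cells, and Mmp11 had the highest level in granulosa cells.

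Between the cell types of control follicles, all 10 genes differed. Mmp2 and Adamts4 were higher in oocytes and the other 8 were higher in granulosa cells. In a fit over all 24 libraries (edgeR quasi-likelihood test with Benjamini-Hochberg adjustment over 20601 genes) 10 of 10 passed at 0.05, where 77.3% of all genes tested passed, 44.4% higher and 32.9% lower in oocytes. The median log2 difference of the 10 was -5.14, against 0.41 over all genes tested. Mmp14, Timp1, Timp2, Timp3, Adamts1 and Adamts5 passed the count filter in granulosa cells but not in oocytes, and Adamts4 the reverse. Such genes entered this fit through the cell type where they are high, so a large difference was partly built in. The libraries of the cell types did not overlap for any of the 10, nor for 77.8% of all genes, so most genes of the series differ between these cells too.

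Mmp2, the gelatinase that cuts type IV collagen of basement membranes, was at 55.4, 50.5, 58.2 and 65.7 CPM in the 4 control oocyte libraries and at 11.1, 1.36, 4.69 and 31.2 CPM in the control granulosa cell libraries. Every oocyte library lay above every granulosa cell library, and the granulosa cell libraries differed far more among themselves. The difference was 2.59 ± 0.83 on the log2 scale (SE, edgeR adjusted p = 0.00778). Over all 12 oocyte libraries Mmp2 ran from 47.1 to 72.9 CPM, 754 to 1116 counts each, while over the 12 granulosa cell libraries it ran from 1.36 to 87.1 CPM.

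Adamts4, an aggrecanase, was at 5.62, 13.8, 4.87 and 10.9 CPM in control oocytes and at 0.280, 0.452, 0 and 0.900 CPM in control granulosa cells. The groups were well apart, and 6 of the 12 granulosa cell libraries had 0 counts of it. Its difference was 4.80 ± 1.04 on the log2 scale (SE, edgeR adjusted p = 0.000331).

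The 8 genes higher in granulosa cells were near 0 in oocytes. Mmp11, a stromelysin, was at 114, 167, 114 and 186 CPM in control granulosa cells and at 2.07, 7.95, 1.23 and 0 CPM in control oocytes, a log2 difference of -5.23 ± 0.77 (SE, edgeR adjusted p = 4.00e-06). Timp1, a secreted inhibitor, was at 19.4, 16.4, 12.4 and 15.2 CPM against 0.201, 2.07, 0 and 0 CPM. In both genes the highest oocyte value was that of control replicate 2, the oocyte library with the most granulosa cell markers. The log2 differences of the others were -5.05 ± 0.97 for Mmp14, the membrane-bound activator of Mmp2, -4.30 ± 0.94 for Timp1, -3.50 ± 1.26 for Timp2, -8.31 ± 1.29 for Timp3, -8.28 ± 1.40 for Adamts1 and -6.10 ± 1.17 for Adamts5. Mmp15, another membrane-bound metalloproteinase, had no count in the control oocytes and 50 counts in the control granulosa cells. Taking 3 counts over the group as the limit, the pooled counts put it at least 13.6-fold lower in oocytes. Of the 50 counts, 38 lay in granulosa control replicate 1, so this limit rested on that library. Mmp15 did not pass without granulosa control replicate 1 (edgeR adjusted p = 0.0834).

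For some of these 8 genes much of the oocyte signal lay in 1 library. Of Mmp11, oocyte control replicate 2 held 150 counts and the other 11 oocyte libraries together 123. Of Timp1 it held 39 counts against 11, and of Adamts5, the other main aggrecanase, 15 against 4. Of Mmp14 it held 18 against 18 and of Adamts1 2 against 0, while it held the smaller part of Timp2 (12 against 44) and Timp3 (2 against 5) and no count of Mmp15 (0 against 24). Mmp2 and Adamts4 did not follow this: replicate 2 held 953 counts of Mmp2 against 9742, and 261 of Adamts4 against 1513. Without that library the difference between cell types was 2.64 for Mmp2, 4.42 for Adamts4, -6.78 for Mmp11, -6.44 for Mmp14 and -7.57 for Timp1 on the log2 scale, and all 10 genes passed. The remaining 3 control oocyte libraries had no count of Timp2, Timp3, Adamts1 and Adamts5, whose differences of -3.50, -8.31, -8.28 and -6.10 thus rested on replicate 2. In these 3 libraries the 4 genes were at least 40.7-fold, 234-fold, 224-fold and 299.9-fold lower than in control granulosa cells, taking 3 counts as the limit. These limits leave out the control library that held counts, so they are not values for oocytes at large. Timp2 had 18 counts in the blebbistatin oocytes and 26 in the dextran oocytes. In the treated follicles some of these transcripts had no count at all in oocytes. Mmp14 had no count in the dextran oocytes, at least 505-fold lower than in dextran granulosa cells, and Adamts1, a versican-cutting protease of the ovulating follicle, had none in the blebbistatin and dextran oocytes, at least 168-fold and at least 248-fold lower than in the granulosa cells of the same media.

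**Figure D2:**
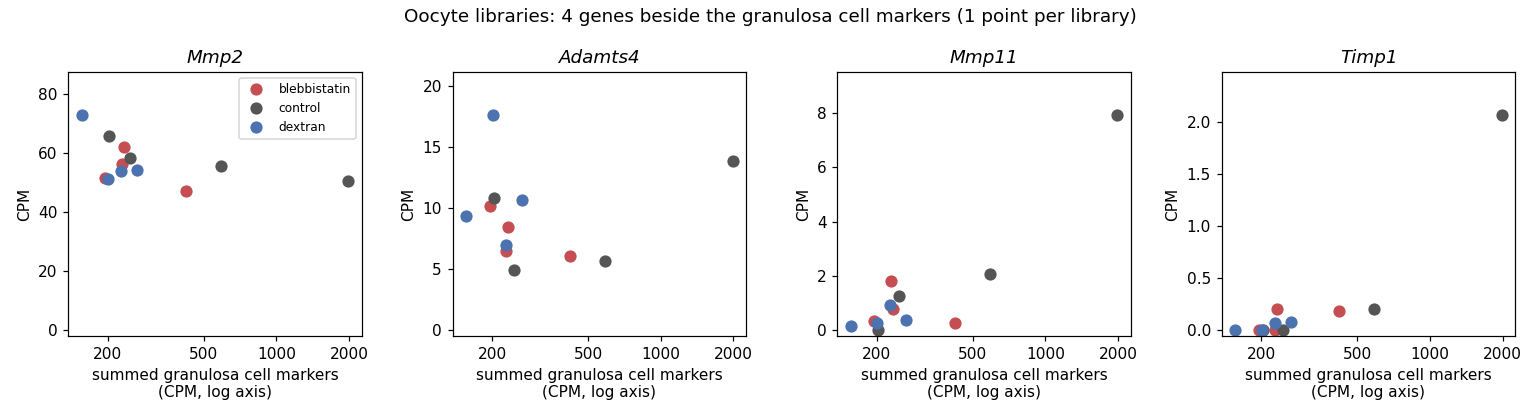
For the 12 oocyte libraries, the CPM of 4 genes (vertical axes, linear) is plotted against the summed CPM of 13 granulosa cell markers (horizontal axes, log scale), with 1 point per library coloured by medium. The control library at 1988 CPM of markers has the highest Mmp11 (7.95 CPM) and Timp1 (2.07 CPM), while its Mmp2 (50.5 CPM) lies within the range of the others.

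In granulosa cells, blebbistatin against control asks whether these genes move when myosin II is blocked. Timp3, Mmp2, Timp2 and Mmp11 had higher group means with blebbistatin, Adamts5 and Adamts1 lower ones, and Timp1 lay close to control. The mean of Mmp14 was higher too, at 20.6 against 15.6 CPM, with overlapping libraries. No gene passed: 0 of the 8 tested, where 0.00651% of 15370 genes did (1 gene). Mmp15 and Adamts4 were too low to be tested. An unadjusted p under 0.05 was reached by 4 of the 8, Timp3, Timp2, Mmp11 and Mmp2, and by 1602 of all 15370 genes (edgeR quasi-likelihood test). Of the 8, 6 had positive log2 changes, with a median of 0.65 against -0.05 over all genes tested. That median is of genes that passed a filter on low counts, not of all 10.

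Timp3, the inhibitor that binds to the matrix and also blocks ADAMTS proteases, was at 33.9, 4.34, 8.95 and 10.7 CPM in the control libraries and at 236, 26.8, 208 and 17.3 CPM with blebbistatin. Replicates 1 and 3 of blebbistatin were far above all other granulosa cell libraries, while replicates 2 and 4 lay inside the control range. The log2 change was 3.07 ± 0.92 (SE, 95% interval 1.07 to 5.08, edgeR adjusted p = 0.259). Without both high libraries it was 0.62 ± 0.77 (edgeR adjusted p = 0.825). By RefSeq Timp3 overlaps Syn3, a synapsin gene, which was at 1.03 ± 0.369 CPM in control and 4.20 ± 1.91 CPM with blebbistatin (SD, n = 4). Whether the counting used strand is not stated in the sources. The overlap is one of whole gene spans, shared exons were not looked up, and a mixing of reads between these genes was not tested.

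Timp2, an inhibitor that together with Mmp14 also helps to activate Mmp2, was at 2.29, 2.17, 1.90 and 4.20 CPM in control and at 10.0, 6.77, 18.5 and 6.73 CPM with blebbistatin. All 4 blebbistatin libraries lay above all 4 control libraries. The log2 change was 1.99 ± 0.64 (SE, 95% interval 0.61 to 3.38, edgeR adjusted p = 0.280). Cep295nl, which overlaps Timp2 by RefSeq, was at 0 CPM with blebbistatin. Timp1 in contrast was at 15.8, 19.4, 23.4 and 11.0 CPM with blebbistatin, a range that holds all 4 control values. Its log2 change was 0.13 ± 0.27 with a 95% interval from -0.46 to 0.73 (edgeR adjusted p = 0.904). Syn1, which overlaps Timp1, was at most 1.11 CPM in these libraries.

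Mmp2 was at 87.1, 22.9, 83.4 and 63.6 CPM with blebbistatin, of which replicate 2 alone lay inside the control range that reached 31.2 CPM. The log2 change was 2.41 ± 1.08 (SE, 95% interval 0.06 to 4.77, edgeR adjusted p = 0.465). Mmp11 was at 372, 209.8, 295 and 207 CPM with blebbistatin, all above the highest control library at 186 CPM. Its log2 change was 0.90 ± 0.30 (SE, 95% interval 0.24 to 1.57, edgeR adjusted p = 0.310). Timp2 and Mmp11 were thus 2 of 8 genes with every blebbistatin library above every control library, which held for 2.46% of all genes tested. With DESeq2 in place of edgeR, Timp3 and Timp2 passed (adjusted p = 0.0336 and 0.0451). How many of all genes passed with DESeq2 is not given here, so these 2 calls cannot be set against edgeR's share. Mmp14 was at 22.8, 8.59, 16.7 and 14.3 CPM in control and at 29.8, 21.5, 16.6 and 14.4 CPM with blebbistatin, overlapping throughout, with a log2 change of 0.40 ± 0.43.

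Adamts5 and Adamts1 were lowest in 1 blebbistatin library. Adamts5 was at 11.0, 11.3, 18.2 and 39.2 CPM in control and at 0.217, 11.3, 11.8 and 9.07 CPM with blebbistatin, a log2 change of -1.30 ± 0.78 (SE, edgeR adjusted p = 0.594). Adamts1 was at 11.7, 9.90, 18.1 and 17.1 CPM in control and at 0, 8.70, 10.2 and 14.8 CPM with blebbistatin, a log2 change of -0.76 ± 0.90 (SE, edgeR adjusted p = 0.819). The low library in both was replicate 1, the one with the fewest genes detected, where Adamts1 had 0 counts and Adamts5 had 4. Both genes sit next to each other on chromosome 16, with no protein-coding gene between them by RefSeq.

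**Figure D3:**
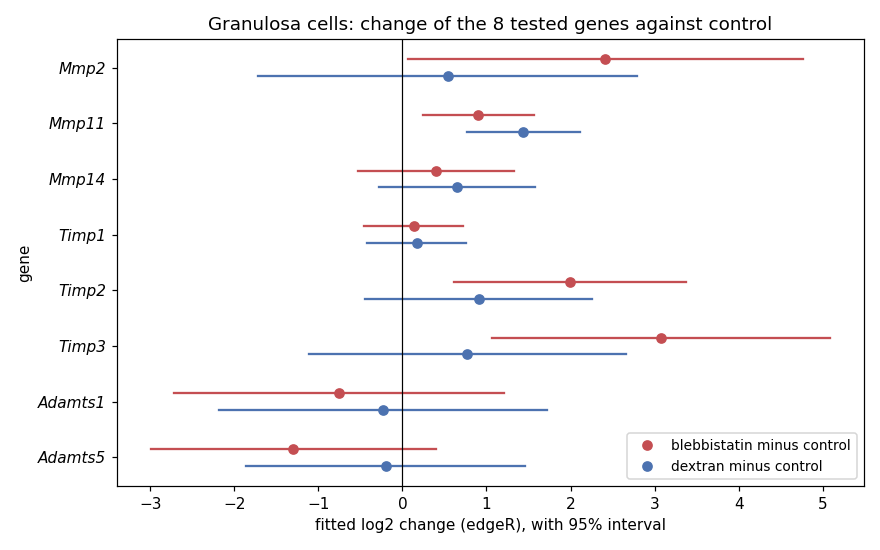
Points give the fitted log2 change of the 8 tested genes in granulosa cells (horizontal axis; gene on the vertical axis) for blebbistatin and for dextran, each against the same 4 control libraries, and lines give the 95% interval. The intervals of Timp3, Timp2, Mmp2 and Mmp11 for blebbistatin and of Mmp11 for dextran do not reach 0, and none of these 5 passed after adjustment over all genes.

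Theca and stroma markers and smooth muscle markers had higher group medians in blebbistatin than in control granulosa cells, and the libraries overlapped. The 12 theca and stroma markers summed to 246, 27.6, 58.7 and 393 CPM in control, to 1146, 330, 845 and 343 CPM with blebbistatin and to 174, 375, 31.3 and 26.2 CPM with dextran. Of these markers 0 to 3 were at 0 in a control library, 0 to 2 in a blebbistatin library and 0 to 8 in a dextran library, and Cyp17a1, the steroid enzyme of theca cells, was at most 0.981 CPM. Markers of smooth muscle, 5 genes, summed to 17.7 to 187 CPM in control, 126 to 591 CPM with blebbistatin and 20.4 to 50.8 CPM with dextran. The 7 granulosa cell libraries highest in Mmp2 were the 7 highest in theca and stroma markers. Of the 7 highest in Timp2, 6 were among them, and for Timp3, Mmp11, Timp1 and Mmp14 it was 5 each. Any sets of 7 out of 12 libraries must share some, and the number shared over all genes was not computed. Timp1, which lay close to control with blebbistatin, had the same number as Timp3. The part of such cells in the levels of Mmp2, Timp2 and Timp3 was not tested.

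Leaving out the blebbistatin libraries with the most theca and stroma markers (replicates 1 and 3), the log2 change was 1.86 for Mmp2, 1.37 for Timp2 and 0.53 for Mmp11 (edgeR adjusted p = 0.650, 0.505 and 0.612). Leaving out those with the most immune cell markers (replicates 1 and 2), it was 2.63 for Mmp2, 2.28 for Timp2, 2.98 for Timp3 and 0.80 for Mmp11, with no gene passing. Adamts1 and Adamts5 were then at -0.18 and -0.92.

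**Figure D4:**
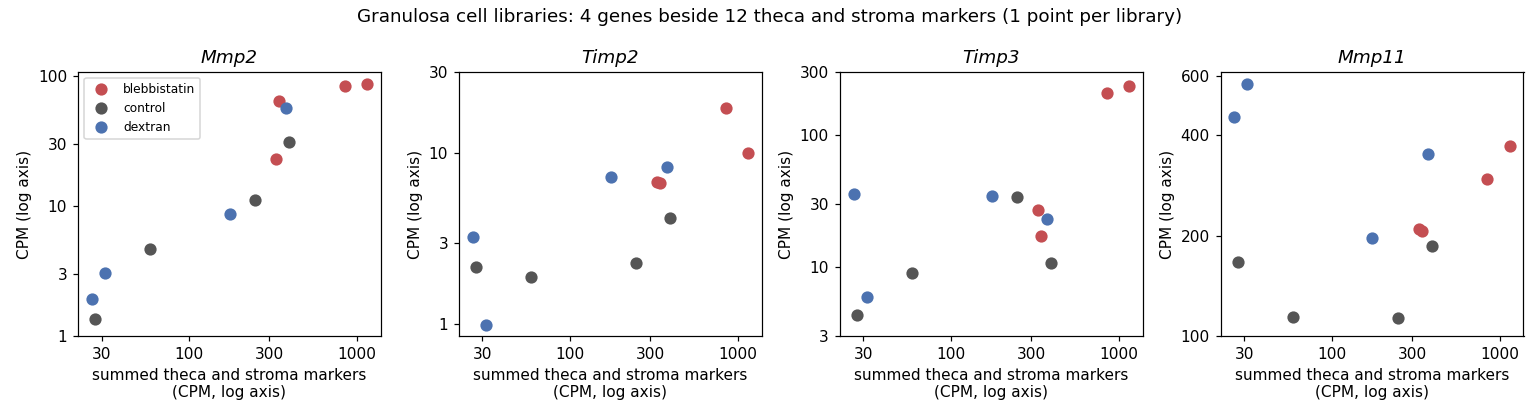
For the 12 granulosa cell libraries, the CPM of 4 genes (vertical axes, log scale) is plotted against the summed CPM of 12 theca and stroma markers (horizontal axes, log scale), with 1 point per library coloured by medium. Mmp2 orders the libraries much as the markers do, while the dextran libraries with the highest Mmp11 (571 and 452 CPM) are among the lowest in markers (31.3 and 26.2 CPM).

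Dextran against control in granulosa cells asks the same of compression, against the same control libraries. Mmp11 was at 197, 351, 571 and 452 CPM with dextran, against 114 to 186 CPM in control, a group mean of 393 ± 159 CPM (SD, n = 4). All 4 dextran libraries lay above all 4 control libraries, and Mmp11 was the 1 gene of 8 tested for which this held, as it did for 2.67% of all genes tested. The log2 change was 1.44 ± 0.31 (SE, 95% interval 0.77 to 2.11), its p of 0.000526 was the 14th smallest of 15370, and it did not pass (edgeR adjusted p = 0.527). Of all genes tested 0% passed (0 of 15370), and 523 had an unadjusted p under 0.05. DESeq2 on the same libraries gave Mmp11 an adjusted p of 0.00302. The share of 0% is edgeR's, and the share of all genes that passed with DESeq2 is not given here. The dextran libraries with the highest Mmp11, replicates 3 and 4, held the least theca and stroma markers of their group.

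The other genes overlapped between dextran and control. Mmp2 was at 8.60, 56.4, 3.06 and 1.93 CPM with dextran, and its log2 change of 0.54 ± 1.04 rested on replicate 2, without which it was -1.41. Timp3 was at 34.4, 23.0, 5.88 and 35.8 CPM (0.77 ± 0.87) and Timp2 at 7.28, 8.33, 0.988 and 3.22 CPM (0.91 ± 0.62). Replicate 3 was the lowest dextran library in both, inside the control range for Timp3 and below it for Timp2. Mmp14 was at 22.5, 46.9, 13.0 and 15.2 CPM (0.64 ± 0.43), highest in replicate 2 like Mmp2. The changes of Timp1, Adamts1 and Adamts5 were 0.17 ± 0.27, -0.23 ± 0.90 and -0.20 ± 0.76. Each of these 7 genes had an edgeR adjusted p of 1.00. The median over the 8 was 0.59, against -0.0037 over all genes tested.

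Set against each other in granulosa cells, blebbistatin and dextran gave no gene that passed, 0 of 8 where 0% of 15370 did, with 1358 genes at an unadjusted p under 0.05. Timp3 had the smallest p of the 8, with a log2 difference of 2.30 ± 0.89 higher with blebbistatin (SE, edgeR adjusted p = 0.497), and without blebbistatin replicates 1 and 3 it was -0.15. Mmp11 was lower with blebbistatin by group mean, 271 ± 79.1 against 393 ± 159 CPM (SD, n = 4), and the libraries overlapped (-0.54 ± 0.30, 95% interval -1.19 to 0.12, edgeR adjusted p = 0.640). Mmp2 (1.88 ± 1.06) and Timp2 (1.09 ± 0.62) were higher by group mean with blebbistatin, while Timp1 differed by -0.04 ± 0.27. Mmp14, Adamts1 and Adamts5 differed by -0.25, -0.52 and -1.10.

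The genes with the most similar pattern over the 12 granulosa cell libraries were looked up for the gene of smallest p in each treatment comparison. For Timp3 they were Csrp1, Prnp and Pdlim2, with Pearson correlations of log2(CPM + 1) of 0.932, 0.900 and 0.894. For Mmp11 they were Anxa5, Mlf1 and Tiparp, at 0.939, 0.937 and 0.934. These values describe libraries that share their 3 media and differ in depth and makeup.

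Mmp15 and Adamts4 were at the edge of detection in granulosa cells. Mmp15 was at 1.77, 0.317, 0.186 and 0.0600 CPM in control, at 0, 0.817, 1.93 and 0 CPM with blebbistatin and at 0.110, 0.248, 0.0471 and 0 CPM with dextran. Adamts4 was at 0, 0.0584, 0 and 0 CPM with blebbistatin and at 0, 0.991, 0 and 1.61 CPM with dextran. The groups overlapped in both genes, which had 108 and 82 counts in 12 libraries and were not tested between media within granulosa cells. Of Adamts4 the groups held 31 counts in control, 1 with blebbistatin and 50 with dextran.

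In oocytes 3 of the 10 genes were abundant enough to test, and none passed for either medium, where 0% of 16749 genes did. Unadjusted p-values under 0.05 were reached by 686 genes for blebbistatin and 890 for dextran. Mmp2 lay in a narrow range in all media, at 47.1, 56.1, 62.0 and 51.6 CPM with blebbistatin and 53.8, 72.9, 51.1 and 54.0 CPM with dextran, beside control libraries of 50.5 to 65.7 CPM. Its log2 change was -0.08 ± 0.15 with blebbistatin (95% interval -0.39 to 0.23) and 0.01 ± 0.15 with dextran (-0.30 to 0.32), both overlapping control (edgeR adjusted p = 1.00). Adamts4 was at 6.06, 6.49, 8.43 and 10.2 CPM with blebbistatin and at 6.93, 9.35, 17.7 and 10.7 CPM with dextran, and all but dextran replicate 3 lay within the control range of 4.87 to 13.8 CPM. Its log2 change was -0.18 ± 0.36 with blebbistatin (95% interval -0.94 to 0.59) and 0.34 ± 0.36 with dextran (-0.42 to 1.10).

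Mmp11 was at 0.235, 1.79, 0.779 and 0.329 CPM in blebbistatin oocytes and at 0.924, 0.131, 0.243 and 0.358 CPM in dextran oocytes. Control oocytes were spread from 0 to 7.95 CPM and held both extremes. The log2 change was -1.85 ± 1.04 with blebbistatin and -2.75 ± 1.09 with dextran (SE, edgeR adjusted p = 1.00 and 0.881). Without control replicate 2, the library with the most granulosa cell markers, it was -0.49 and -1.39. Blebbistatin against dextran in oocytes gave -0.10 for Mmp2, 0.90 for Mmp11 and -0.52 ± 0.36 for Adamts4, none of which passed (0% of 16749 genes did, and 682 had an unadjusted p under 0.05). The other 7 genes had at most 56 counts each over the 12 oocyte libraries, and an effect of the media on them was not tested within oocytes.

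Whether the media acted differently in the cell types was tested as an interaction, the log2 change in oocytes minus that in granulosa cells. None of the 10 genes passed for either medium, where 0.0485% and 0% of 20601 genes did, and unadjusted p-values under 0.05 were reached by 4 of the 10 genes for blebbistatin and 3 for dextran (2322 and 1912 of all genes, edgeR). Mmp2 and Mmp11 were the genes that passed the count filter in both cell types. For blebbistatin their difference was -2.57 ± 1.12 and -2.96 ± 1.03 (SE, edgeR adjusted p = 0.401 and 0.298), and for dextran it was -0.62 ± 1.11 and -4.39 ± 1.10 (edgeR adjusted p = 1.00 and 0.266). Of the 201 counts of Mmp11 in control oocytes, 150 lay in replicate 2, the oocyte library with the most granulosa cell markers. Blebbistatin and dextran oocytes held 47 and 25 counts of Mmp11, so its fitted values cannot be read as sizes. For Mmp11 with dextran the adjusted p was 0.0270 with DESeq2 and 0.0448 by edgeR without oocyte control replicate 4, where Mmp11 had 0 counts. Leaving out 1 library at a time, the dextran difference of Mmp11 ran from -5.17 to -2.76 (edgeR adjusted p from 0.0448 to 0.830). The blebbistatin difference of Mmp11 then ran from -3.72 to -1.21, and it did not pass. The other 8 genes were too low in one of the cell types for their fitted values to be read as sizes. Of these, Mmp14 and Timp1 had unadjusted p-values under 0.05 with dextran (edgeR adjusted p = 0.302 and 0.376), and DESeq2 passed Mmp14 (adjusted p = 0.0351). The shares of all genes above are edgeR's, and those of DESeq2 are not given here. Mmp14 had 25 counts in the control oocytes, 18 of them in replicate 2, and none in the dextran oocytes. Of the 42 counts of Timp1 in control oocytes, 39 lay in replicate 2. Timp1 and Adamts4 were under 0.05 unadjusted with blebbistatin (edgeR adjusted p = 0.442 and 0.394), and for Adamts4 this rested on 31 counts in control and 1 in blebbistatin granulosa cells.

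Other genes of matrix proteolysis were counted in 6 lists. No member of any of them passed for either medium in either cell type. Among 19 other matrix metalloproteinases 3 were abundant enough to test in granulosa cells, and Mmp23, the most abundant, was at 72.9 ± 10.1 CPM in control, 98.7 ± 33.7 with blebbistatin and 74.8 ± 27.1 with dextran (SD, n = 4). Of 16 other ADAMTS genes 8 were tested, and the most abundant, the procollagen-processing Adamts2, was at 274 ± 49.8, 356 ± 56.7 and 364 ± 78.9 CPM in the same order. Adamts19 was at 50.1 ± 10.3, 27.7 ± 7.42 and 33.1 ± 7.04 CPM (log2 change -0.86 with blebbistatin and -0.60 with dextran, edgeR adjusted p = 0.240 and 1.00). Among inhibitors, activators and clearance receptors (11 of 13 tested) the smallest p for blebbistatin were those of Bsg, the inducer of metalloproteinases, at 579 ± 81.8 CPM against 845 ± 117 CPM in control, and Pcolce, the procollagen C-proteinase enhancer, at 103 ± 29.6 CPM against 47.6 ± 4.57 CPM in control (edgeR adjusted p = 0.184 and 0.190). Vcan, the versican substrate of ADAMTS proteases, was at 85.3 ± 45.1 CPM in control, 35.0 ± 10.0 with blebbistatin and 49.0 ± 53.3 with dextran.

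Between the cell types of control follicles, members of each of these lists passed in both directions, to be read against the 77.3% of all genes that passed, 44.4% higher and 32.9% lower in oocytes. Of 7 other metalloproteinases tested 4 were higher in oocytes (Mmp9, Mmp12, Mmp17 and Mmp24) and Mmp23 was lower, with Mmp24, a membrane-bound enzyme, at 8.53 ± 4.36 CPM in control oocytes and 0.0232 ± 0.0464 CPM in control granulosa cells. Of 11 other ADAMTS genes 3 were higher (Adamts3, Adamts17 and Adamts18) and 6 lower (Adamts6, Adamts7, Adamts10, Adamts16, Adamts19 and Adamts2), the last at 6.13 ± 7.46 against 274 ± 49.8 CPM. In the plasminogen activator system 3 of 5 tested passed. Of these Plat, the tissue plasminogen activator, was at 5587 ± 579 CPM in control oocytes and 3.45 ± 4.32 CPM in control granulosa cells (log2 difference 11.03 ± 1.38, edgeR adjusted p = 4.24e-07), and Plaur, the urokinase receptor, was higher too. Serpine2, an inhibitor of plasminogen activators, was lower in oocytes, at 515 ± 144 against 4832 ± 806 CPM (-2.86 ± 0.21, edgeR adjusted p = 1.35e-10). Of 12 inhibitors, activators and receptors tested 2 were higher in oocytes (Spock1 and Furin, the protease that activates Mmp11 and Mmp14) and 8 lower (Reck, Spock2, Pcolce, Pcsk5, Lrp1, Bsg, Cd44 and Cav1). Of 9 ADAM proteases 3 were higher (Adam8, Adam12 and Adam17) and 3 lower (Adam9, Adam10 and Adam15). Of 5 proteoglycan and hyaluronan genes Has3, a hyaluronan synthase, was higher and Vcan, Bcan, Tnfaip6 and Itih5 were lower. The median log2 difference was 4.05 for the metalloproteinases, -1.99 for the ADAMTS genes, -2.08 for the ADAM proteases, 1.52 for the plasminogen activator system, -2.95 for the inhibitors, activators and receptors and -4.63 for the proteoglycan and hyaluronan genes, against 0.41 over all genes tested. These medians are of genes that passed the filter on low counts, which a gene high in either cell type alone can pass. Their size and sign thus depend partly on which genes the filter let in.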

How the data were processed

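The authors deposited 1 table of estimated counts for each cell type, made with salmon on GRCm39, per the submitters' processing notes. The sources used here do not give the annotation, versions or strandedness. Amplification took 15 PCR cycles, and extraction was done for all replicates at once, per the labels. Coordinates are printed for promoters only, on GRCm38.p6.

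Estimated counts were rounded. Genes passed filterByExpr with a minimum count of 10, and edgeR 4.0.16 (TMM, robust glmQLFit, glmQLFTest; R 4.3.3) fitted the 12 libraries of each cell type, or all 24 libraries for comparisons between cell types, with Benjamini-Hochberg adjustment over all genes tested and a threshold of 0.05. SE is the log2 change over the root of the F statistic, and intervals are at 95%. CPM per kb uses the longest coding transcript in GENCODE M21. A limit for 0 counts is 3 counts over the group; like every count here it covers counting error only, since PCR copies cannot be told from separate molecules without identifiers. The steps were tested on simulated data. Replicates differed far beyond sampling noise (at least 12.4 chi-square units per gene), so no pair was treated as a repeat of 1 library, which does not show that they came from separate cultures.

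All 10 genes are named in every comparison, and of other lists those that passed or, where none passed, up to 2 of smallest p whose mean reached 5 CPM. Similar genes are the 3 of highest Pearson correlation, for members averaging 20 CPM or more. The members and lists were chosen with earlier results of these data known. Alternatives were RLE factors, DESeq2 1.42.0, limma 3.58.1 voom, no filter, a replicate block, fewer groups, and fewer libraries. Leaving out pairs of blebbistatin libraries was chosen after seeing the data.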

Additional observations from a re-analysis of the deposited data

Results flagged for a closer look

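In 44 groups of 4 libraries the highest library held at least 10 counts. In 8 of them 1 library had a gap to its nearest neighbour that exceeded Dixon's 95% critical share of the group's range. Some groups entered only through the flagged library, and where all others were at 0 the share is 1 by construction. The number of flags thus cannot be set against a chance rate. For Mmp2 it was dextran replicate 2 in both cell types, at 56.4 CPM in granulosa cells (the others at 1.93 to 8.60) and at 72.9 CPM in oocytes (51.1 to 54.0). For Mmp15 it was granulosa control replicate 1 at 1.77 CPM (0.0600 to 0.317) and oocyte blebbistatin replicate 2 at 1.38 CPM (0 to 0.0658). Timp2 was at 4.20 CPM in granulosa control replicate 4 (1.90 to 2.29). The other 3 were all oocyte control replicate 2, the oocyte library with the most granulosa cell markers: Timp1 at 2.07 CPM (0 to 0.201), Timp2 at 0.636 CPM (0 in the others) and Adamts5 at 0.795 CPM (0 in the others).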

How the results depend on the processing

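In granulosa cells none of the 10 genes passed for blebbistatin or dextran under the alternatives run other than DESeq2, which called 2 for blebbistatin and 1 for dextran. For the cell type difference in the dextran response it called 2 (Mmp11 and Mmp14), and leaving out 1 library at a time gave 0 to 1. The causes were not tested. How many of all genes DESeq2 called is not given here, so its calls cannot be read as particular to these genes.

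Replicate numbers were not taken as pairs, since the labels tie them to nothing shared and not every same-number pair correlated. Same-number deviations correlated from -0.18 to 0.32 in granulosa cells (4 of 12 pairs over 0.1, against 2 of 36 with different numbers) and from -0.13 to 0.18 in oocytes (4 of 12 against 6 of 36). In granulosa cells 8 of 12 libraries correlated best with their own number, a hint from the data and not from the design, and in oocytes 4 of 12 did. With the replicate block 8 of 10 genes passed between cell types, all but Mmp2 (2.35, edgeR adjusted p = 0.0979) and Mmp15 (-4.18, 0.330), Adamts5 with dextran in granulosa cells was 0.062 and the dextran difference of Adamts4 was 0.12. With limma voom these last were 0.0025 and 0.67.

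Log2 changes that had not passed turned their sign in some alternatives. Leaving out granulosa blebbistatin replicates 1 and 2, Mmp14 was -0.00073 and Adamts1 against dextran 0.056; leaving out 1 and 3, Timp1 was -0.047 and Timp3 against dextran -0.15. Leaving out 1 library, Timp1 with blebbistatin ran from -0.044 to 0.30 and against dextran from -0.21 to 0.13, Mmp2 with dextran from -1.41 to 1.61, Adamts5 with dextran from -0.40 to 0.36 and Mmp14 against dextran from -0.46 to 0.30. In oocytes, Adamts4 with blebbistatin ran from -0.38 to 0.13, Mmp2 with dextran from -0.11 to 0.093 and against dextran from -0.17 to 0.036. The dextran difference between cell types ran from -1.69 to 1.40 for Mmp2 and from -1.15 to 0.63 for Adamts4. RLE factors moved the median of all genes in it from -0.16 to -0.04. Depth limits 7 genes in oocytes and Mmp15 and Adamts4 in granulosa cells.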
